A study of Homo sapiens with 6 samples.

Results

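The genes described here encode chaperones, disulfide isomerases and degradation factors of the endoplasmic reticulum, with the sensors that regulate them. They were listed by symbol, 42 genes in all, and every array probe annotated with 1 of those symbols was taken, which gave 63 of 48701 probes for 41 genes. HERPUD1 had no probe annotated to it in the table used. The cells were A549, an established human line from a lung adenocarcinoma, and their RNA was read on single-colour Illumina bead arrays. The 3 groups held 2 arrays each: cells transfected with ncRNA-a7 siRNA, directed at a long noncoding RNA transcribed near SNAI1, cells transfected with Snai1 siRNA, directed at the transcriptional repressor SNAI1, and cells transfected with control siRNA. All were grown in the same serum-containing medium, and the labels do not say whether a group's arrays stand for separate cultures. The p-values therefore reflect only the spread between arrays, which may be technical.

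Proteins that enter the secretory pathway fold in the endoplasmic reticulum. There the Hsp70 chaperone HSPA5 binds unfolded chains, calnexin and calreticulin hold glycoproteins through their sugars, and disulfide isomerases join cysteines. Chains that fail to fold are sent back to the cytosol and degraded, a process called ER-associated degradation (ERAD) in which SYVN1 is a ubiquitin ligase. An excess of unfolded protein is sensed by ATF6, ERN1 and EIF2AK3, which start the unfolded protein response. ATF6 and the spliced form of XBP1 then activate chaperone and ERAD genes, while EIF2AK3 acts through the factor ATF4.

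The promoters of the genes were searched for the elements through which these factors are known to act. Windows from 250 bases before to 50 after the start were available from RefSeq (GRCh38.p14) for 39 of the 42 genes, and both strands were searched. The ER stress response element (ERSE), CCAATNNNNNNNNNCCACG, which NF-Y and ATF6 are known to bind, was found in 8 of the 39 genes (20.5%, in 10 of their 52 windows), against 0.0769% of all 35116 windows. The 8 genes were CALR, CANX, CRELD2, ERO1B, HSP90B1, HSPA5, PDIA6 and XBP1. The related element ERSE-II, made of ATTGG and CCACG with 1 base between them, was found in HERPUD1, HYOU1 and SDF2L1 (7.69%, in 3 of the 52 windows, against 0.0541% of all windows). TGACGTG, the core of the unfolded protein response element, was found in DNAJC10, HYOU1, TXNDC11 and TXNDC5 (10.3%, in 4 of the 52 windows, against 1.97%). The letters CCACG, which also lie within both ERSE forms, were found in 76.9% of the genes and 38 of their 52 windows, against 38.1% of all windows. A gene counted if any of its windows matched, so shares of genes and shares of windows are unlike measures. The CANX element was met in several overlapping windows. Since the genes were listed as parts of this pathway, these shares describe the list and were not tested. The stretches below come from genes that carry an element and were picked by their calls. CALR, CRELD2, ERO1B and HYOU1 were called in the comparisons that follow, and HSPA5, HSP90B1, XBP1 and SDF2L1 were not. CANX and PDIA6, also not called, are not shown. A difference in response between called and uncalled genes was not tested. Each is written 5′ to 3′ on the strand of the gene, with the fixed letters of the element in capitals. CGTGG and ATTGG mark an ERSE, and CGTGG and CCAAT an ERSE-II, on the opposite strand. The places are chr9:125241371-125241429 (minus strand) for HSPA5, chr12:103930196-103930254 (plus) for HSP90B1, chr22:28800583-28800641 (minus) for XBP1, chr19:12938364-12938422 (plus) for CALR, chr22:49918534-49918592 (plus) for CRELD2, chr1:236282163-236282208 (minus) for ERO1B, chr22:21642094-21642144 (plus) for SDF2L1, and chr11:119057360-119057410 and chr11:119057254-119057304 (minus) for the far and near elements of HYOU1.
HSPA5: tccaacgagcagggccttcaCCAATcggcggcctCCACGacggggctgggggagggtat
HSP90B1: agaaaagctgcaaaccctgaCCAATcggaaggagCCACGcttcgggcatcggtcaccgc
XBP1: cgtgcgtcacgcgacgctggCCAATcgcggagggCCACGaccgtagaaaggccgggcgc
CALR: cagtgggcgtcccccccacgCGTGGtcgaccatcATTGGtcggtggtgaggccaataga
CRELD2: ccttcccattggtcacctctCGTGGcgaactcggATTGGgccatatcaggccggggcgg
ERO1B: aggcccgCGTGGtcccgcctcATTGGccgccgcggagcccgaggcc
SDF2L1: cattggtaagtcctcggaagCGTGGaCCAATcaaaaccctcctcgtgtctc
HYOU1 far element: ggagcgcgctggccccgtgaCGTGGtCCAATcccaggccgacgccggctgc
HYOU1 near element: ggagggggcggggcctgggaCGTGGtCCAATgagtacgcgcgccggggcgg

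The deposited signals were corrected for background with an offset of 50, brought to 1 distribution by quantile normalization and put on the log2 scale. Probes with a mean above the median of all probes were kept, and the probe with the highest mean stood for its gene, which left 38 of the 42 genes among 19730 features. PDIA3, ERN1 and DERL3 were on the array but too dim, with scanner signals of 117 to 154 at percentiles 3.15 to 54.8 of their arrays. A gene is called higher or lower at an adjusted p under 0.05 from limma, with Benjamini-Hochberg adjustment over all features, and every adjusted p below is of this kind. Normalised signals are given on the linear scale, in arbitrary units that include the offset, so folds of dim genes are understated. Probes of different genes cannot be compared in level. Mean scanner signals of the arrays ran from 715 to 914, lowest on Snai1 siRNA replicate 2. Epithelial identity was checked with 7 markers, of which KRT8, KRT7, CDH1, EPCAM and NQO1 were bright, KRT18 was dimmer and AKR1C1 lay below the filter. Their summed scanner signals were 56022 to 57712 with ncRNA-a7 siRNA, 43122 to 52680 with Snai1 siRNA and 42907 to 49802 with control siRNA. EPCAM fell while CDH1 rose with both siRNAs. KRT7 had scanner signals of 6530.5 and 5045 with Snai1 siRNA against 9256 and 11075.5 with control siRNA. Of the 6 markers tested, 3 were called higher and 2 lower with ncRNA-a7 siRNA, beside 5.78% and 4.16% of all features. With Snai1 siRNA 1 was called higher and 2 lower, beside 4.88% and 4.28%. SNAI1 and TRERNA1, the symbol under which ncRNA-a7 was looked up, lay below the filter, so knockdown cannot be checked on these arrays. Markers of other cell types were mostly dim, with summed leukocyte signals of 1103 to 1118 with ncRNA-a7 siRNA, 961 to 1190 with Snai1 siRNA and 837 to 843 with control siRNA over 5 genes, 3 of which passed the filter. PTPRC, the defining leukocyte marker, read 113 to 162 over its 4 probes, and CD14 and ITGAM rose with ncRNA-a7 siRNA. Over 5 fibroblast genes the sums were 954 to 980 with ncRNA-a7 siRNA, 990 to 1167 with Snai1 siRNA and 877 to 1000.1 with control siRNA. Over 5 endothelial genes they were 813 to 908 with ncRNA-a7 siRNA, 887 to 1036 with Snai1 siRNA and 790 to 804 with control siRNA, and 3 of 5 genes passed the filter in each list. CD14, COL1A1, LUM and ESAM rose with Snai1 siRNA, and ESAM also with ncRNA-a7 siRNA. The part of these markers in the results below was not tested.

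With ncRNA-a7 siRNA, 8 of 38 endoplasmic reticulum genes rose over control siRNA and 0 fell, beside 5.78% of all features higher and 4.16% lower. They were the chaperone genes HYOU1, DNAJB9, MANF and CALR, the oxidase gene ERO1B, the related CRELD1 and CRELD2, and SEL1L of the ERAD ligase complex, with rises of 1.34-fold to 1.65-fold. HSPA5 and HSP90B1, the main Hsp70 and Hsp90 chaperones of the compartment, were not called, nor were XBP1 and the tested sensors ATF6 and EIF2AK3. With Snai1 siRNA, 5 of 38 rose, namely PDIA4, PDIA5, CRELD2, SEL1L and EDEM1, by 1.39-fold to 1.51-fold, and DERL2 fell, beside 4.88% of all features higher and 4.28% lower. Compared directly, HYOU1, DNAJB9, CRELD1, FKBP2 and DERL2 were higher in ncRNA-a7 siRNA cells than in Snai1 siRNA cells, and EDEM3 was lower, beside 4.74% of all features higher and 3.38% lower. In all, 14 genes were called in at least 1 comparison and 24 tested genes in none. Both comparisons with control siRNA share the same control arrays, so their values are given side by side and no overlap is read from them.

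**Figure D1:**
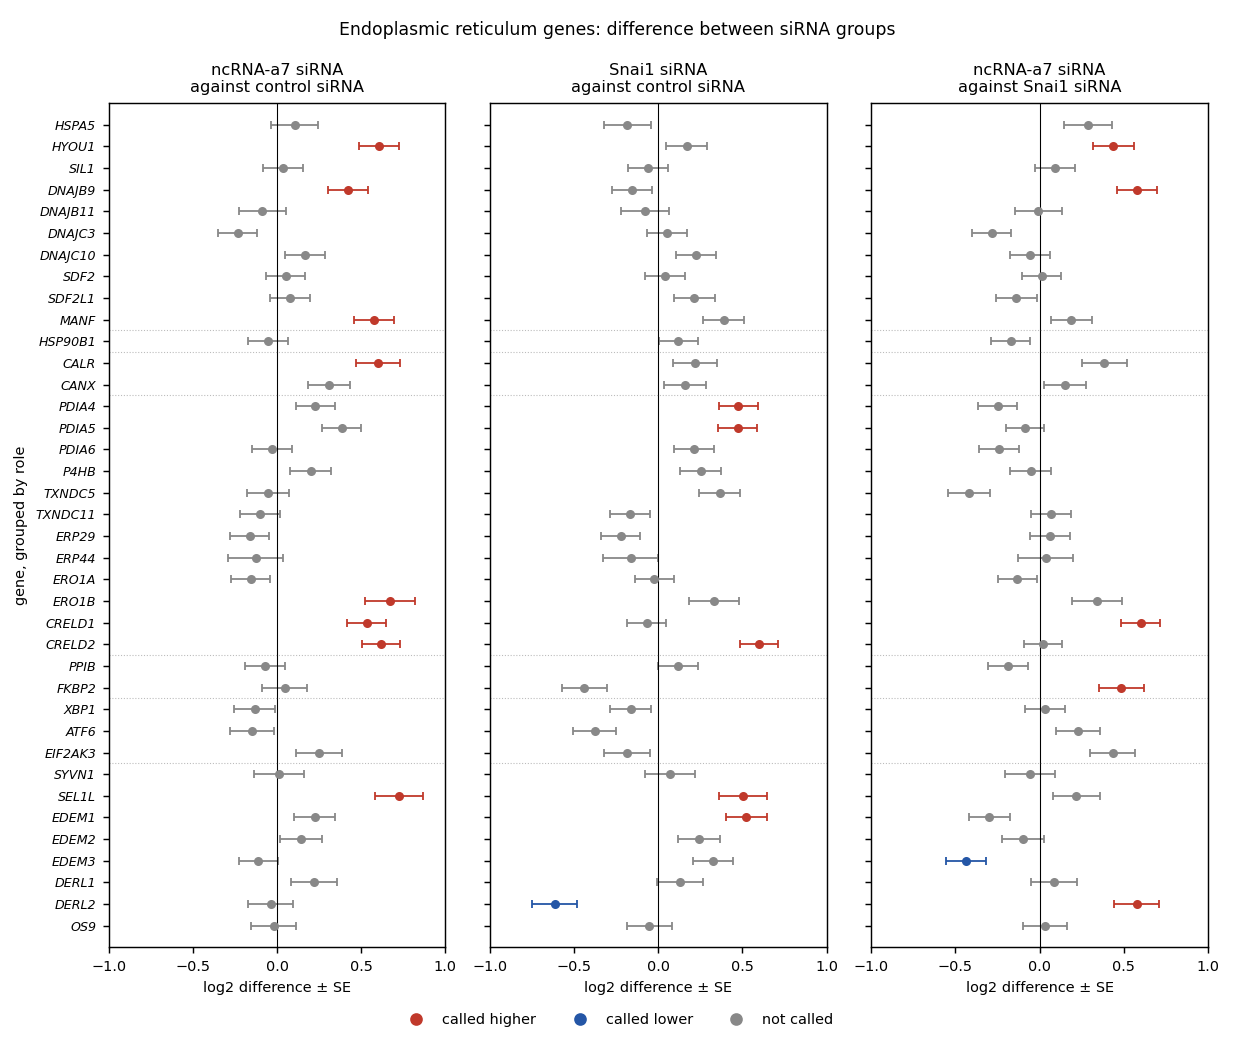
Log2 difference ± SE for each of the 38 tested genes (rows, grouped by role with dotted lines) in 3 comparisons (panels), from limma with 2 arrays per group. Red genes were called higher, blue genes lower and grey genes not called; all calls lie between 1.34-fold and 1.65-fold.

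The endoplasmic reticulum genes are bright on these arrays, and 36 of the 38 were represented by a probe brighter than 75% of all probes. Bright features are called more often: of 9958 features in that range, 9.04% were called higher and 6.87% lower with ncRNA-a7 siRNA, 7.91% and 6.94% with Snai1 siRNA, and 7.53% and 5.51% between the siRNAs. Among the 36 genes in that range, 22.2% were higher and 0% lower with ncRNA-a7 siRNA, 13.9% and 2.78% with Snai1 siRNA, and 13.9% and 2.78% between the siRNAs. These shares were not tested against each other, and nothing particular to the list is read from them. The median log2 difference of the 38 genes was 0.06 with ncRNA-a7 siRNA (all features, -0.01), 0.12 with Snai1 siRNA (all features, -0.01) and 0.03 between the siRNAs (all features, -0.01). With median scaling in place of quantile normalization the median of the genes turned to -0.03 with ncRNA-a7 siRNA (all features, -0.04) and was 0.01 with Snai1 siRNA (all features, -0.06), and no direction of the list as a whole is read from it. At an unadjusted p under 0.05, 10 of the 38 genes were higher and 0 lower with ncRNA-a7 siRNA, 9 higher and 3 lower with Snai1 siRNA, and 8 higher and 4 lower between the siRNAs. The share of all features at that threshold was not counted. Counts at an unadjusted p, here and below, are therefore not read as a result about a list.

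HSPA5 binds exposed hydrophobic stretches in cycles driven by ATP, helped by J proteins that deliver clients and by exchange factors that release ADP. Its normalised signal was 1386 and 1235 with ncRNA-a7 siRNA, 1133 and 1014 with Snai1 siRNA and 1375 and 1078 with control siRNA. Both siRNA groups overlapped the controls, with log2 differences of 0.10 ± 0.14 SE for ncRNA-a7 siRNA (adjusted p = 0.713) and -0.18 ± 0.14 for Snai1 siRNA (adjusted p = 0.48). HYOU1, the large Hsp70-like protein that acts as an exchange factor for HSPA5, had 879 and 1009 with ncRNA-a7 siRNA, 728 and 664 with Snai1 siRNA and 613 and 624 with control siRNA. The 3 groups did not overlap. HYOU1 was 1.52-fold higher in ncRNA-a7 siRNA cells than in controls (log2 difference 0.61 ± 0.12 SE, adjusted p = 0.00886) and 1.35-fold higher than with Snai1 siRNA (adjusted p = 0.0462). The second of these calls was lost on removing any 1 of the 6 arrays (adjusted p up to 0.258) and under 5 of the 11 other settings. Its second probe, which did not stand for the gene, read 689 and 731 with ncRNA-a7 siRNA, 451 and 492 with Snai1 siRNA and 494 and 467 with control siRNA. Over all 48701 probes without a filter the second probe differed by 0.56 from control siRNA (adjusted p = 0.0534) and by 0.59 from Snai1 siRNA (adjusted p = 0.0566).

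DNAJB9 is a J protein that targets clients to HSPA5 and to degradation. It read 1525 and 1654 with ncRNA-a7 siRNA, 1054 and 1073 with Snai1 siRNA and 1259.6 and 1119 with control siRNA, so the ncRNA-a7 siRNA arrays were highest and the Snai1 siRNA arrays lowest. The rise with ncRNA-a7 siRNA was 1.34-fold over control siRNA (log2 difference 0.42 ± 0.12 SE, adjusted p = 0.0449), and its call was lost without any 1 of the 6 arrays (adjusted p up to 0.252). Against Snai1 siRNA it was 1.49-fold higher (adjusted p = 0.0132), and the difference of Snai1 siRNA from control siRNA was -0.16 ± 0.12 (adjusted p = 0.468). MANF, a small secreted protein that is kept in the compartment and binds HSPA5, read 5707 and 6551 with ncRNA-a7 siRNA, 5550.4 and 5180.3 with Snai1 siRNA and 4078 and 4119 with control siRNA. All 4 arrays of the targeting siRNAs were above both controls. MANF was 1.49-fold higher with ncRNA-a7 siRNA (log2 difference 0.58 ± 0.12 SE, adjusted p = 0.0107), while the Snai1 siRNA difference of 0.39 ± 0.12 was not called (adjusted p = 0.0659). The other Hsp70 partners, SIL1, DNAJB11, DNAJC3, DNAJC10, SDF2 and SDF2L1, were called in none of the 3 comparisons. Their log2 differences lay between -0.29, for DNAJC3 between the siRNAs, and 0.22, for DNAJC10 with Snai1 siRNA, at the probes that stood for them. A second, also bright DNAJC10 probe differed more, by 0.34 with ncRNA-a7 siRNA (adjusted p = 0.356 over all probes) and by 0.55 with Snai1 siRNA (adjusted p = 0.107).

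CALR encodes calreticulin, the soluble lectin chaperone that also stores calcium. It read 1591 and 1991 with ncRNA-a7 siRNA, 1342 and 1383 with Snai1 siRNA and 1125 and 1223 with control siRNA, in 3 groups that did not overlap. It was 1.52-fold higher in ncRNA-a7 siRNA cells than in controls (log2 difference 0.60 ± 0.13 SE, adjusted p = 0.0139). The difference between the siRNAs was 0.39 ± 0.13 (adjusted p = 0.0985). CANX, the membrane-bound counterpart calnexin, read 2513 and 2359 with ncRNA-a7 siRNA, 2327 and 2062 with Snai1 siRNA and 2114 and 1824 with control siRNA, and its difference of 0.31 ± 0.13 with ncRNA-a7 siRNA was not called (adjusted p = 0.15). HSP90B1, which folds integrins and Toll-like receptors, ran from 20811 to 21087 with ncRNA-a7 siRNA, from 23064 to 24164 with Snai1 siRNA and from 20493 to 23064 with control siRNA. It was not called in any comparison (adjusted p from 0.415 to 0.829).

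Among 12 disulfide isomerase, oxidase and related genes, 3 rose with ncRNA-a7 siRNA and 3 with Snai1 siRNA, and 0 fell. That is 25% with each siRNA, beside 5.78% and 4.88% of all features and 9.04% and 7.91% of the bright ones. These shares were not tested against each other. CRELD2, a soluble stress-induced protein with isomerase-like activity, read 1706 and 1764 with ncRNA-a7 siRNA, 1661 and 1756 with Snai1 siRNA and 1147 and 1112 with control siRNA. The 2 targeting siRNA groups overlapped each other and lay above the controls. CRELD2 rose 1.54-fold with ncRNA-a7 siRNA (log2 difference 0.62 ± 0.11 SE, adjusted p = 0.00535) and 1.51-fold with Snai1 siRNA (0.60 ± 0.11, adjusted p = 0.00659), and the difference between the siRNAs was 0.02 ± 0.11 (adjusted p = 0.931). CRELD1, a membrane-anchored relative, instead separated the siRNAs, with 558 and 522 with ncRNA-a7 siRNA, 344 and 368 with Snai1 siRNA and 382 and 364 with control siRNA. It was 1.45-fold higher in ncRNA-a7 siRNA cells than in controls (adjusted p = 0.013) and 1.52-fold higher than with Snai1 siRNA (adjusted p = 0.00948). Its 3 other probes, of which 1 passed the filter, were dim, at scanner signals of 115 to 169, and differed from control siRNA by -0.19, 0.02 and 0.08 on the log2 scale. Both calls rest on 1 probe and were lost with the mean of the passing probes (adjusted p = 0.436 and 0.0506).

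ERO1B, an oxidase that recharges protein disulfide isomerase, read 462 and 394 with ncRNA-a7 siRNA, 374 and 303 with Snai1 siRNA and 240.3 and 298 with control siRNA. The groups followed that order without overlap, and the rise of 1.59-fold with ncRNA-a7 siRNA was called (log2 difference 0.67 ± 0.15 SE, adjusted p = 0.0152). A second probe differed by 0.52 in the same comparison (adjusted p = 0.0773 over all probes). ERO1A, the other oxidase of this pair, differed by -0.16 ± 0.12 (adjusted p = 0.462). PDIA4, an isomerase with several thioredoxin domains, read 694 and 749 with ncRNA-a7 siRNA, 839.6 and 874 with Snai1 siRNA and 586 and 648 with control siRNA. PDIA5, another isomerase, read 1824 and 1940.3 with ncRNA-a7 siRNA, 2074 and 1922 with Snai1 siRNA and 1473 and 1409 with control siRNA. For both genes all 4 arrays of the targeting siRNAs were above the controls after normalization. The rise was called with Snai1 siRNA, at 1.39-fold for PDIA4 (adjusted p = 0.0253) and also 1.39-fold for PDIA5 (adjusted p = 0.0243), whereas ncRNA-a7 siRNA gave differences of 0.23 ± 0.12 (adjusted p = 0.264) and 0.39 ± 0.11 (adjusted p = 0.0558). As scanner signals, before normalization, the Snai1 siRNA and control siRNA arrays overlapped for both genes. They also overlapped for HYOU1, DNAJB9, MANF, CALR, ERO1B, TXNDC5 and EDEM3, whose Snai1 siRNA and control siRNA arrays lay apart only after normalization. TXNDC5, a thioredoxin-domain isomerase, was highest with Snai1 siRNA, at 8716 and 7284, against 6153 and 6233 with control siRNA, but was not called (adjusted p = 0.0935). The remaining isomerase genes, P4HB, PDIA6, TXNDC11, ERP29 and ERP44, differed by -0.24 to 0.25 at the probes that stood for them and were not called. A second bright ERP29 probe differed by -0.36 with ncRNA-a7 siRNA and -0.30 with Snai1 siRNA (adjusted p = 0.236 and 0.351 over all probes), and a second ERP44 probe by 0.31 between the siRNAs (adjusted p = 0.475).

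Of the 2 prolyl isomerases, FKBP2 was called and PPIB was not. FKBP2, which accelerates proline isomerization and binds the drug FK506, read 1666 and 2095 with ncRNA-a7 siRNA, 1405 and 1266 with Snai1 siRNA and 1781 and 1838 with control siRNA. It was 1.40-fold higher in ncRNA-a7 siRNA cells than in Snai1 siRNA cells (log2 difference 0.49 ± 0.13 SE, adjusted p = 0.045), and Snai1 siRNA differed from control siRNA by -0.44 ± 0.13 (adjusted p = 0.0621). Its 3 dimmer probes differed by -0.41, -0.01 and 0.04 between the siRNAs, and with the mean of the gene's probes the difference was 0.02 (adjusted p = 0.927). The FKBP2 call held on removing 1 of the 6 arrays and was lost on removing any of the other 5. PPIB, cyclophilin B, differed by no more than 0.19 in size in any comparison.

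**Figure D2:**
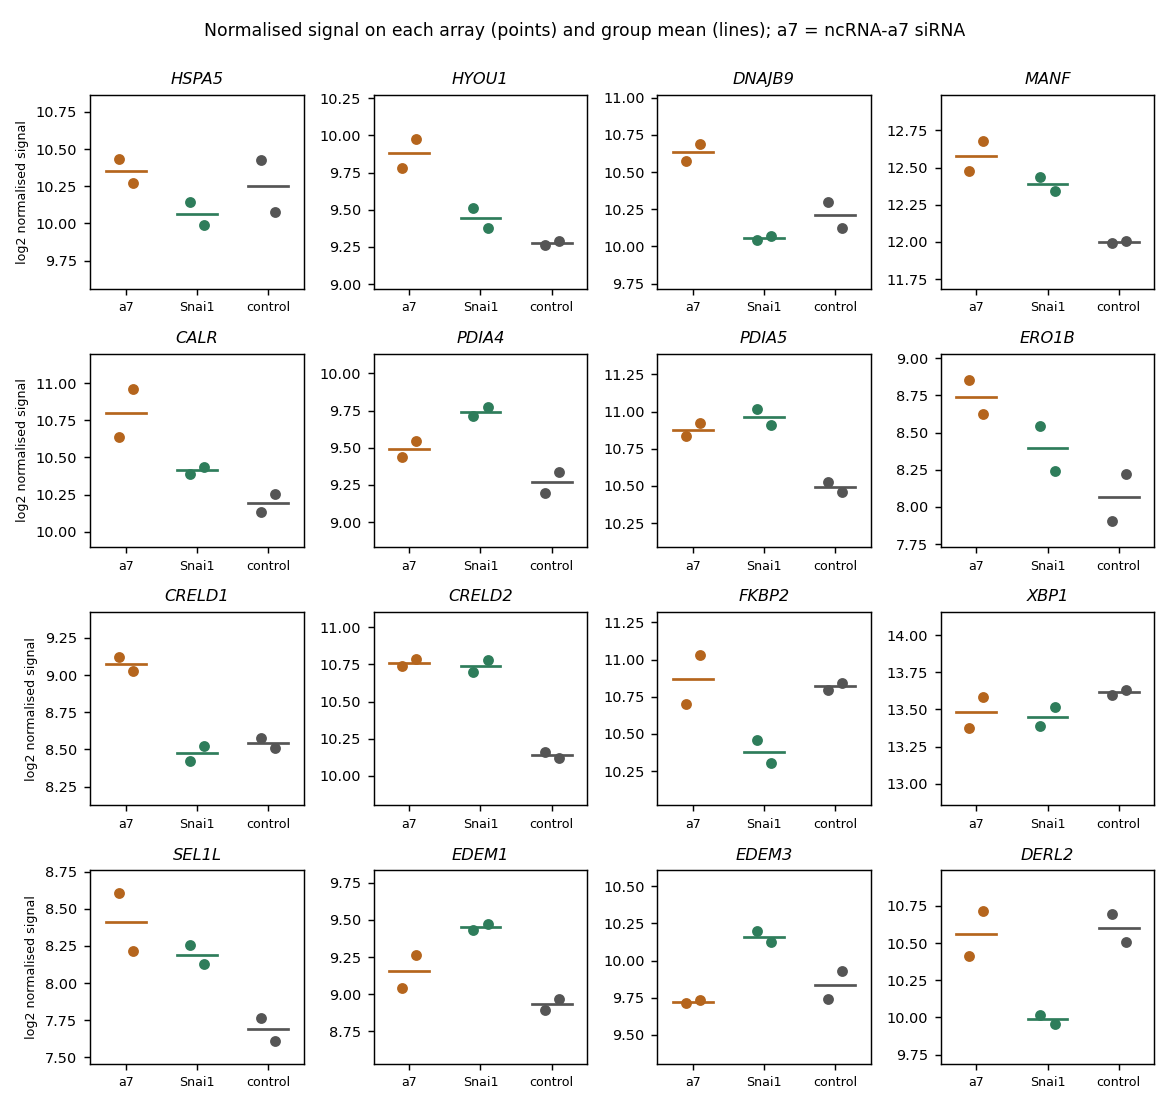
Log2 normalised signal on each of the 6 arrays (points) with the group mean (lines) for the 14 called genes and for HSPA5 and XBP1, with ncRNA-a7 siRNA (a7), Snai1 siRNA and control siRNA from left to right; every panel spans the same log2 range. CRELD2 is raised with both targeting siRNAs, DNAJB9 and CRELD1 stand out with ncRNA-a7 siRNA, and DERL2 and FKBP2 are low with Snai1 siRNA.

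Among the sensors, ATF6 and EIF2AK3 were not called in any comparison and ERN1 was too dim to be tested. XBP1 was not called in any comparison either. XBP1, whose transcript is spliced by ERN1 into an active factor, read 10647 and 12299 with ncRNA-a7 siRNA, 10706 and 11695 with Snai1 siRNA and 12388 and 12695 with control siRNA. The log2 differences from control were -0.13 ± 0.12 SE (adjusted p = 0.564) and -0.16 ± 0.12 (adjusted p = 0.464), and a second probe gave -0.02 and -0.25. The probes are not annotated as to the spliced form. ATF6 differed by -0.38 ± 0.13 with Snai1 siRNA (adjusted p = 0.0936) and EIF2AK3 by 0.43 ± 0.14 between the siRNAs (adjusted p = 0.074).

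In ERAD, SEL1L holds the ligase SYVN1 to its substrate-recognition lectins. It read 389 and 298 with ncRNA-a7 siRNA, 305 and 279.9 with Snai1 siRNA and 217 and 196 with control siRNA, so every array of the targeting siRNAs was above both controls. It rose 1.65-fold with ncRNA-a7 siRNA (log2 difference 0.72 ± 0.14 SE, adjusted p = 0.00792) and 1.42-fold with Snai1 siRNA (adjusted p = 0.0456). SYVN1 itself differed by 0.01 ± 0.15 with ncRNA-a7 siRNA (adjusted p = 0.973) and 0.07 ± 0.15 with Snai1 siRNA (adjusted p = 0.833), and its second probe by -0.14 and 0.14. The EDEM proteins recognise or trim the sugars of misfolded glycoproteins. EDEM1 read 528 and 615 with ncRNA-a7 siRNA, 692 and 711 with Snai1 siRNA and 475 and 502 with control siRNA, a rise of 1.44-fold with Snai1 siRNA (adjusted p = 0.0187). EDEM3 read 841 and 851 with ncRNA-a7 siRNA and 1173 and 1116 with Snai1 siRNA, with controls at 856 and 974 between them. It was lower in ncRNA-a7 siRNA cells than in Snai1 siRNA cells (log2 difference -0.44 ± 0.12 SE, adjusted p = 0.0428). The call was lost on removing any 1 of the 6 arrays (adjusted p up to 0.168). The other EDEM3 probe that passed the filter was dim and differed by 0.08, and with the mean of both the difference was -0.18 (adjusted p = 0.391). DERL2, a derlin of the membrane channel through which chains leave, read 1361 and 1685 with ncRNA-a7 siRNA, 1035 and 995 with Snai1 siRNA and 1661 and 1454 with control siRNA. In Snai1 siRNA cells it fell by 0.61 ± 0.13 SE on the log2 scale (adjusted p = 0.0138) and was 1.49-fold higher in ncRNA-a7 siRNA cells than in Snai1 siRNA cells (adjusted p = 0.0232). A second DERL2 probe gave -0.41 and 0.43 in these comparisons (adjusted p = 0.189 and 0.187 over all probes). DERL1, EDEM2 and OS9 were called in no comparison.

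The fits were repeated with 1 array removed at a time. In each comparison, fewer of the genes were called higher on removing an array of either compared group. Fewer of all features were called higher in those fits as well, so nothing particular to the list is read from them. DERL2, the 1 gene called lower with Snai1 siRNA, lost that call on removing either Snai1 array or control array 1. Of the 20 calls, 0 held in all 6 of these fits. CRELD2 with ncRNA-a7 siRNA came nearest, lost only on removing control array 2 (adjusted p = 0.0538), and SEL1L with ncRNA-a7 siRNA was lost on removing control array 2 (adjusted p = 0.0853) or ncRNA-a7 array 1. Across the 11 other settings, SEL1L with ncRNA-a7 siRNA was the 1 call kept in all, and with median scaling 5 of the 20 calls were kept. No called gene changed its direction under any of the 17 alternatives. Over all probes without a filter, limma called 3 of the 63 probes higher with ncRNA-a7 siRNA, for CRELD2, HYOU1 and SEL1L, beside 1.26% of all probes higher and 0.690% lower. It called 1 higher with Snai1 siRNA, for CRELD2, beside 1.12% and 0.823% of all probes. Between the siRNAs it called 0, beside 0.713% and 0.478% of all probes, with 9 of the 63 probes higher and 4 lower at an unadjusted p under 0.05.

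**Figure D3:**
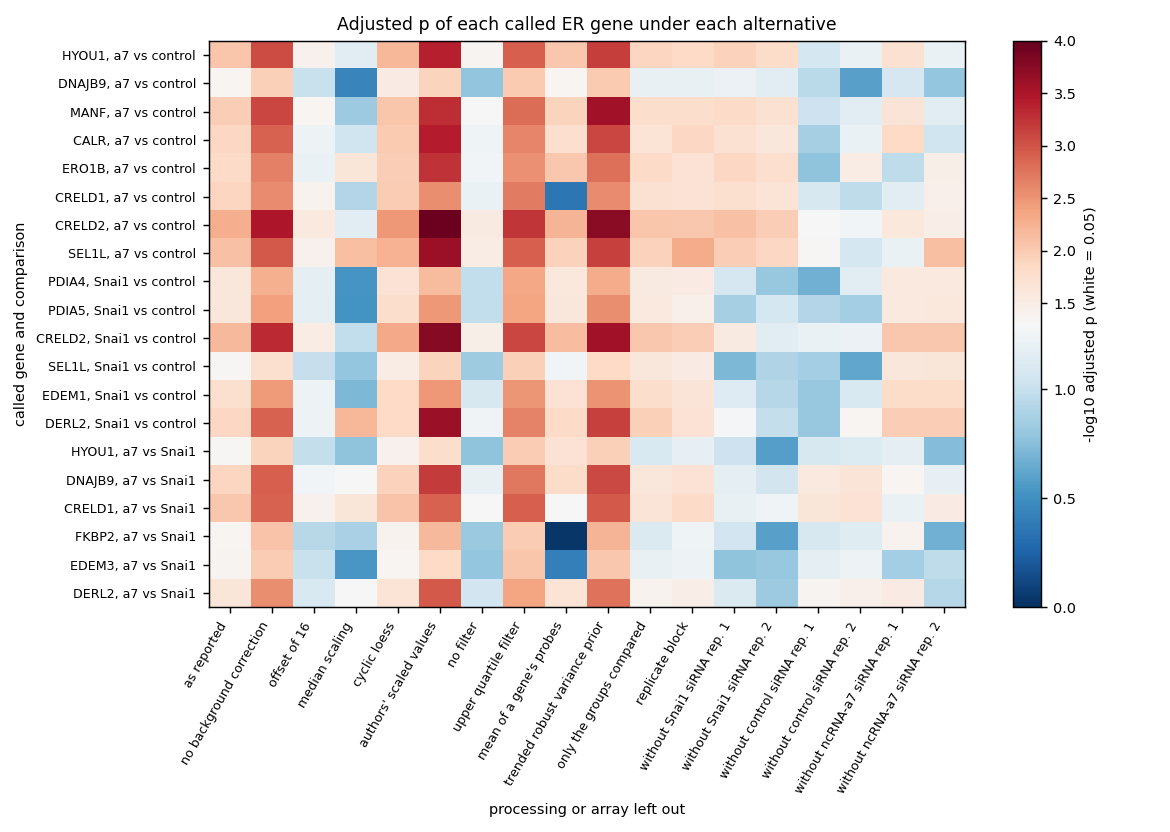
Adjusted p, as -log10, of each of the 20 calls (rows) as reported and under 17 alternatives (columns), where white marks 0.05, red a kept call and blue a lost call. Left-out arrays, the smaller offset, median scaling and the absence of a filter hold most of the blue cells.

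Of the 8 genes with an ERSE, CALR, CRELD2 and ERO1B rose with ncRNA-a7 siRNA and CRELD2 with Snai1 siRNA. The others, HSPA5, HSP90B1, XBP1, PDIA6 and CANX, were called in no comparison. HYOU1, with both ERSE-II elements shown above, rose with ncRNA-a7 siRNA, and SDF2L1, with 1, was not called. HSP90B1 carries a second ERSE that is not shown above, at bases -89 to -71 from the start, and it was not called either. A relation of the calls to the number of elements was not tested. Of the 37 tested genes that had a promoter window, 8 rose with ncRNA-a7 siRNA and 5 with Snai1 siRNA, so genes without a match to either element, such as SEL1L, MANF, DNAJB9, PDIA4 and EDEM1, made up the remaining calls. An absent match says only that these letters were not in this window.

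Other genes of the pathway were taken from lists put together by hand. The list of regulators of the unfolded protein response, other than the sensors above, also holds genes that are not regulators, such as CHAC1. Among its 21 tested genes, 0 rose and 7 fell with ncRNA-a7 siRNA (2 higher and 12 lower at an unadjusted p under 0.05). The calls are 0% and 33.3% of the list, beside 5.78% and 4.16% of all features and 9.04% and 6.87% of the bright ones. The share of all features at the unadjusted threshold was not counted. The ones with the smallest p were DDIT3, a stress-induced transcription factor (2.11-fold lower, adjusted p = 0.000381), CHAC1, a glutathione-degrading enzyme (1.94-fold lower), and ATF3 (1.88-fold lower), and ATF4 itself fell by 0.67 on the log2 scale (adjusted p = 0.00573). With Snai1 siRNA 2 of the 21 rose and 5 fell (9.52% and 23.8%, beside 4.88% and 4.28% of all features), with CREB3L3 2.01-fold higher, CHAC1 1.88-fold lower and ATF3 1.89-fold lower. The list's median log2 difference was -0.32 with ncRNA-a7 siRNA and -0.17 with Snai1 siRNA.

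Cytosolic and mitochondrial chaperones also fell with ncRNA-a7 siRNA, 9 of 30 tested, and 0 rose (1 higher and 18 lower at an unadjusted p under 0.05). The 9 called are 30% of the list, beside 4.16% of all features and 6.87% of the bright ones called lower. The share of all features at the unadjusted threshold was not counted. HSPD1, the mitochondrial chaperonin, was 1.82-fold lower (adjusted p = 0.000628), HSP90AB1, a cytosolic Hsp90, 1.73-fold lower (adjusted p = 0.0013) and HSPA1B, an inducible cytosolic Hsp70, 1.84-fold lower (adjusted p = 0.00787). HSPA1A and HSPA1B are near-identical copies, so which of them a probe measured is uncertain. With Snai1 siRNA 1 of the 30 rose, HSPE1, and 2 fell, DNAJB6 by 0.71 and HSPA1A by 0.40 on the log2 scale. That is 3.33% and 6.67%, near the 4.88% and 4.28% of all features and the 7.91% and 6.94% of the bright ones. This list too was chosen with earlier results known, and nothing particular to it is read from the counts with either siRNA. The median log2 difference of the list was -0.31 with ncRNA-a7 siRNA and -0.08 with Snai1 siRNA.

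The counts of the other lists of the secretory pathway stand beside 5.78% of all features higher and 4.16% lower with ncRNA-a7 siRNA and 4.88% and 4.28% with Snai1 siRNA. Several lie near these shares, and nothing particular to a list is read from them. Of 35 other folding factors, 1 rose and 2 fell with ncRNA-a7 siRNA, with PPIC, a cyclophilin, 1.66-fold higher, DNAJB14 1.63-fold lower and SELENOF 1.40-fold lower, and 2 rose and 2 fell with Snai1 siRNA, with TMX3 1.72-fold lower, PPIC 1.47-fold higher and QSOX1 1.51-fold higher. Of 33 further ERAD genes, 2 rose and 1 fell with ncRNA-a7 siRNA, the deubiquitinase YOD1 being 1.85-fold lower and SELENOK and MARCHF6 1.37-fold and 1.33-fold higher, and 1 rose and 4 fell with Snai1 siRNA, among them the lipid-raft protein ERLIN2, 1.95-fold lower. Of 32 genes of transport from the endoplasmic reticulum to the Golgi, 3 rose with ncRNA-a7 siRNA, namely TMED10, a cargo receptor (2.51-fold), SEC23A of the COPII coat (by 0.59 on the log2 scale) and TMED5 (1.47-fold). In that list 1 rose and 3 fell with Snai1 siRNA, the COPII GTPase SAR1A being 2.10-fold lower, SEC23B 1.63-fold lower and LMAN2 1.56-fold higher. Of 29 N-glycosylation genes, 0 were called with ncRNA-a7 siRNA (1 higher and 2 lower at an unadjusted p under 0.05) and 4 fell with Snai1 siRNA, led by ALG5, MPI and ALG2. Of 23 translocation genes, SEC62 rose and SEC63 fell with ncRNA-a7 siRNA, and 0 were called with Snai1 siRNA (0 higher and 3 lower at an unadjusted p under 0.05).

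**Figure D4:**
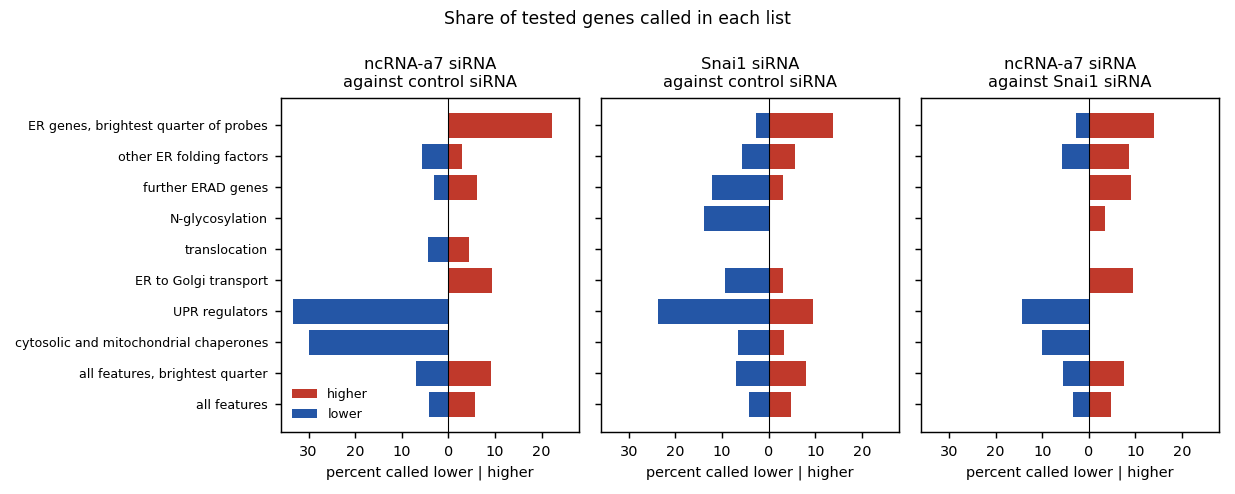
Percent of the tested genes of each list called higher (red, to the right) or lower (blue, to the left) in 3 comparisons (panels), with all features and all features brighter than 75% of probes at the bottom. The endoplasmic reticulum bar holds only the 36 genes brighter than 75% of probes, while the bars of the other lists hold all their tested genes. It reaches 22.2% higher with ncRNA-a7 siRNA, against 21.1% of all 38 tested genes. Regulators of the unfolded protein response (UPR) and cytosolic and mitochondrial chaperones extend to the left.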

How the data were processed

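The authors' deposited scanner table gives a linear, non-normalized intensity for each probe of each array and no detection p-values, so background was not measured. The deposited series matrix holds the same intensity with each array multiplied by 1 constant, 0.783 to 1, as its values show. How either was made is not stated. Gene symbols came from the platform annotation (28044 of 48701 had 1 symbol, 13 several, 20644 none). Signals were processed with limma 3.58.1 in R 4.3.3: normexp correction (offset 50), log2, quantile normalization, a filter at the median of probe means (24350 probes, 19730 features) and 1 fit of all 6 arrays (lmFit and eBayes, 3 residual and 8.9 prior degrees of freedom). Named genes are all called members with HSPA5 and XBP1, other members where useful, and up to 3 called genes per further list. ATF4, HSPA1A and the members just named beyond that rule were chosen after their values were seen. The members and lists were chosen with earlier results of these data known. The fit was also run on simulated data with 1 spread for all features and independent arrays, which cannot vouch for the calls here. Promoter windows are RefSeq's. C-terminal retrieval signals were planned and are not analysed here. Alternatives changed the correction, offset, normalization, source table, filter, probe rule, variance prior, groups fitted, replicate block and arrays.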

Additional observations from a re-analysis of the deposited data

How the results depend on the processing

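Counts of endoplasmic reticulum genes called moved with several settings, always over 38 tested genes unless stated. With ncRNA-a7 siRNA against control siRNA, 8 genes were called higher as reported, 5 with an offset of 16, 2 with median scaling and 4 with no filter (41 genes), and 1 to 7 when 1 array was left out; 0 were called lower throughout. With Snai1 siRNA against control siRNA, 5 were higher and 1 lower as reported, 1 and 0 with an offset of 16 or no filter, 0 and 1 with median scaling, and 8 and 3 with a filter at the 75th percentile (36 genes). In that comparison 3 were lower with no background correction, the authors' scaled values or a trended variance prior, and 2 with only the compared groups fitted. Leaving out 1 array gave 0 to 5 higher and 0 to 2 lower. Between the siRNAs, 5 were higher and 1 lower as reported, 1 and 0 with an offset of 16 or no filter, 2 and 0 with median scaling, and 3 and 0 with only the compared groups fitted. There, 3 were higher with the mean of a gene's probes, and 2 were lower with no background correction, the authors' scaled values, the stricter filter or a trended prior. Leaving out 1 array gave 0 to 3 higher and 0 lower. The cause of these shifts was not tested. Over all features, the share of calls that were higher was 58.2% as reported and 48.9% with median scaling for ncRNA-a7 siRNA, 53.3% and 33.7% for Snai1 siRNA, and 58.4% and 70.5% between the siRNAs. Counts over all features moved likewise: 1141 higher and 821 lower with ncRNA-a7 siRNA as reported, 654 and 364 with an offset of 16, 451 and 471 with median scaling, 537 and 285 with no filter, and 1601 and 1335 with a trended prior. Deviations of same-numbered arrays from their group means correlated at -0.066 to 0.0123, so the numbers were not taken to pair the arrays. With a replicate block, 7, 5 and 3 genes were called higher with ncRNA-a7 siRNA, with Snai1 siRNA and between the siRNAs, and 0, 1 and 0 lower, and 16 of the 20 calls were kept. With 2 arrays per group the typical standard error of a log2 difference was 0.13, and where a group was reduced to 1 array, its spread was taken from the groups with both.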

Other observations

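Some genes of the secretory pathway outside the list differed more between the siRNAs than any of its members. Their calls were not checked with the other settings or with arrays left out. ERLIN2, a membrane protein that marks activated channels for degradation, was 2.26-fold higher in ncRNA-a7 siRNA cells than in Snai1 siRNA cells (limma adjusted p = 0.000222, n = 2 arrays per group), and SAR1A, the GTPase that starts COPII vesicles, 2.17-fold higher (adjusted p = 0.000346). TMX3, a membrane-bound isomerase, was 1.89-fold higher (adjusted p = 0.00143), TMED10 1.87-fold higher and FKBP14, a prolyl isomerase, 1.74-fold higher. Of the further lists, 3 of 35 other folding factors were higher and 2 lower in ncRNA-a7 siRNA cells than in Snai1 siRNA cells, 3 of 33 ERAD genes and 3 of 32 transport genes were higher, and 3 of 21 regulators of the unfolded protein response and 3 of 30 cytosolic and mitochondrial chaperones were lower, beside 4.74% of all features higher and 3.38% lower. HSPD1 was 1.92-fold lower (adjusted p = 0.000687).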
